A study of Mus musculus with 12 samples.

Results

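The genes described here serve antigen presentation by major histocompatibility complex (MHC) class I. They are the regulator Nlrc5, the light chain B2m, the peptide transport, loading and trimming genes Tap1, Tap2, Tapbp and Erap1, and the immunoproteasome subunits Psmb8, Psmb9 and Psmb10. They were taken by symbol from the deposited count table, which held all 9 among 55487 genes, and all 9 were among the 18019 genes with enough counts to be tested. RNA was measured by polyA RNA sequencing in breast tumours of MMTV-PyMT mice on the C57BL/6J strain, a transgenic model in which mammary epithelium makes a viral oncogene (polyoma middle T) from the MMTV promoter. All 12 mice carried it. 6 mice were Bad wild-type (Bad_WT) and 6 carried the allele Bad 3SA (Bad3SA), whose name denotes alanines in place of 3 serines of the cell death protein BAD. The labels give no treatment, and the mice were 21.3 to 27.1 weeks old (Bad_WT) and 22.9 to 31.1 weeks old (Bad3SA) at the end point. Each library is bulk tissue from 1 tumour, so fewer cells of a type and less RNA per cell cannot be told apart.

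As background, MHC class I molecules show fragments of a cell's own proteins to cytotoxic T cells. The proteasome cuts the proteins, and cells under interferon or in immune tissue replace its constitutive catalytic subunits (Psmb5, Psmb6, Psmb7) by Psmb8, Psmb9 and Psmb10. The transporter formed by TAP1 and TAP2 moves the peptides into the endoplasmic reticulum. There ERAP1 trims them, tapasin (Tapbp) bridges the transporter to the waiting class I molecule, and beta-2 microglobulin (B2m) completes the folded complex. NLRC5 raises transcription of class I genes without binding DNA itself, through factors seated on an X box and a Y box upstream of them.

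Libraries held 58096172 to 83296370 counts, and the lowest count of any of the 9 genes in any tumour was 322 (Nlrc5). Levels are in CPM, each gene's counts scaled to a common library size, after scaling by trimmed mean of M values (TMM). Summed CPM of 8 epithelial markers was 5615 to 6831 in Bad_WT and 5294 to 7192 in Bad3SA tumours, so the labelled tissue carried its defining markers throughout. On the first principal component of all tested genes, which took 29.0% of the variance, Bad_WT 6 stood apart from the other tumours. Bad3SA 4, 5 and 6 stood apart on the second, which took 19.9%. Results that moved when these tumours were left out are also given without them.

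Several of the genes share a neighbourhood. In GRCm38, Psmb9 (chr17:34181987-34187764, minus strand), Tap1 (chr17:34187553-34197225), Psmb8 (chr17:34197721-34201454) and Tap2 (chr17:34203527-34216321) lie in a stretch of 34335 bases, and Tapbp (chr17:33915899-33929292) lies nearby on the same chromosome. The others are Nlrc5 (chr8:94434356-94527272), Psmb10 (chr8:105935735-105938444, minus strand), B2m (chr2:122147686-122153083) and Erap1 (chr13:74639568-74693201). The gene models of Tap1 and Psmb9 overlap by 212 bases on opposite strands, and B2m lies wholly within the model of Patl2 on the other strand. Tapbp shares 3422 bases with Zbtb22 on its own strand. The strand setting of the counting is unknown here, and reads in these overlaps cannot be assigned with certainty. The antisense gene Gm20496, which overlaps Psmb8 and Tap2, had 0 counts in every tumour. Gm15821, which shares 3148 bases with Tap2 on the other strand, had 104 counts over all Bad_WT and 225 over all Bad3SA libraries. Other overlaps on opposite strands include Gm16156 with Psmb10 (2710 bases) and Cast with Erap1 (834 bases). Apart from overlapping genes, no gene shared a stretch of at least 200 bases at 95% identity or more with the longest transcript of any of the 9. Shorter stretches were not counted, although reads were 100 bases long.

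The DNA upstream of these genes is shown first, because NLRC5 and interferon-activated factors are known to act upstream of class I genes. RefSeq windows (GRCm38.p6) running from 250 bases before to 50 bases after the start site were at hand for 7 of the 9 genes. The B2m stretch chr2:122147537-122147666 (plus strand, -150 to -21 relative to the start site) carries every letter string searched except the STAT-type string, TTC and GAA with 3 bases between. Its capitals mark, in order, an interferon response string (GAAA, any 2 bases, GAAA), an NF-kB-type string (GGGA, any 4 bases, CCC), the X2 core TGACG to which CREB and ATF factors bind, and the Y box core ATTGG to which NF-Y binds.
B2m: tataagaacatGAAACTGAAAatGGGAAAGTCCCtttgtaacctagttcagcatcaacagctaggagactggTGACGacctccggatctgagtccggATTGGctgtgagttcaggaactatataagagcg

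In B2m, 20 bases separate the X2 core from the Y box core. This spacing was read from B2m and then searched on both strands of all 32851 mouse windows of 300 bases. It occurred in 31 of them (0.0944%), against 20.8% for TGACG alone and 37.4% for ATTGG alone. Those 31 windows belong to 27 genes. They include B2m, the only 1 of the 7 genes with a window, and the class I heavy chains H2-K1, H2-D1 and H2-M3. Most of the 27 are genes of other kinds, such as Calu, Hnrnpf, Nasp and Per1. The heavy chains H2-Q4, H2-Q6, H2-Q7, H2-T22 and H2-T23 are not among the 27, and whether each had a window is not given here. The lines below let the shared ends and the differing spacers be compared, with the X2 and Y cores in capitals. They lie at chr2:122147609-122147638, chr17:34000359-34000388 (minus strand), chr17:35262993-35263022 and chr17:37270188-37270217.
B2m: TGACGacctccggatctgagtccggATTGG
H2-K1: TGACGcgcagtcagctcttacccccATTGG
H2-D1: TGACGcgctggcaggtctcactatcATTGG
H2-M3: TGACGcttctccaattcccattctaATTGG

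Tap1 and Psmb9 are read in opposite directions from start sites that RefSeq places 225 bases apart, so their windows share both of the cores found there. These lie outside the spaced arrangement of B2m: a Y box core read on the other strand (CCAAT), at chr17:34187324-34187353, and an X2 core at chr17:34187458-34187487, both printed on the plus strand with the core in capitals.
Tap1-Psmb9 Y core: gctcggctttCCAATcagcggctgcgcgcg
Tap1-Psmb9 X2 core: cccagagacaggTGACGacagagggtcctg

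Erap1 has a match to the interferon response string on its other strand, at chr13:74639839-74639868, in capitals below. That string is in 3.44% of all windows, and among the 7 genes with a window only B2m and Erap1 hold it. Psmb8 holds the STAT-type string, found in 8.3% of windows. A match describes the letters only, and no binding was measured here.
Erap1: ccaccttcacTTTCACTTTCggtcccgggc

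Across genotypes, 8 of the 9 genes were higher on average in Bad3SA tumours and Erap1 was slightly lower. The genes were chosen with this contrast known, so its values are a description and nothing is read from their counts. In edgeR's quasi-likelihood test with Benjamini-Hochberg adjustment over all 18019 genes, 1 of the 9 (Nlrc5) passed an adjusted p of 0.05, where 1.38% of all tested genes passed in either direction. For 3 of the 9 (Nlrc5, Psmb8 and Psmb9), all 6 Bad3SA tumours lay above all 6 Bad_WT tumours, which held for 0.96% of tested genes. The median log2 fold change (Bad3SA over Bad_WT) of the 9 was 0.84, beside 0.00 over all tested genes. In the authors' deposited table, made with DESeq2 and here turned to the same direction, 5 of the 9 passed, beside 4.02% of all genes it tests. They were Nlrc5 (log2 1.52, adjusted p 2.2e-05), Psmb8 (0.99, 0.0164), Tap1 (0.77, 0.0180), B2m (0.95, 0.0411) and Psmb9 (0.87, 0.0476).

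**Figure D1:**
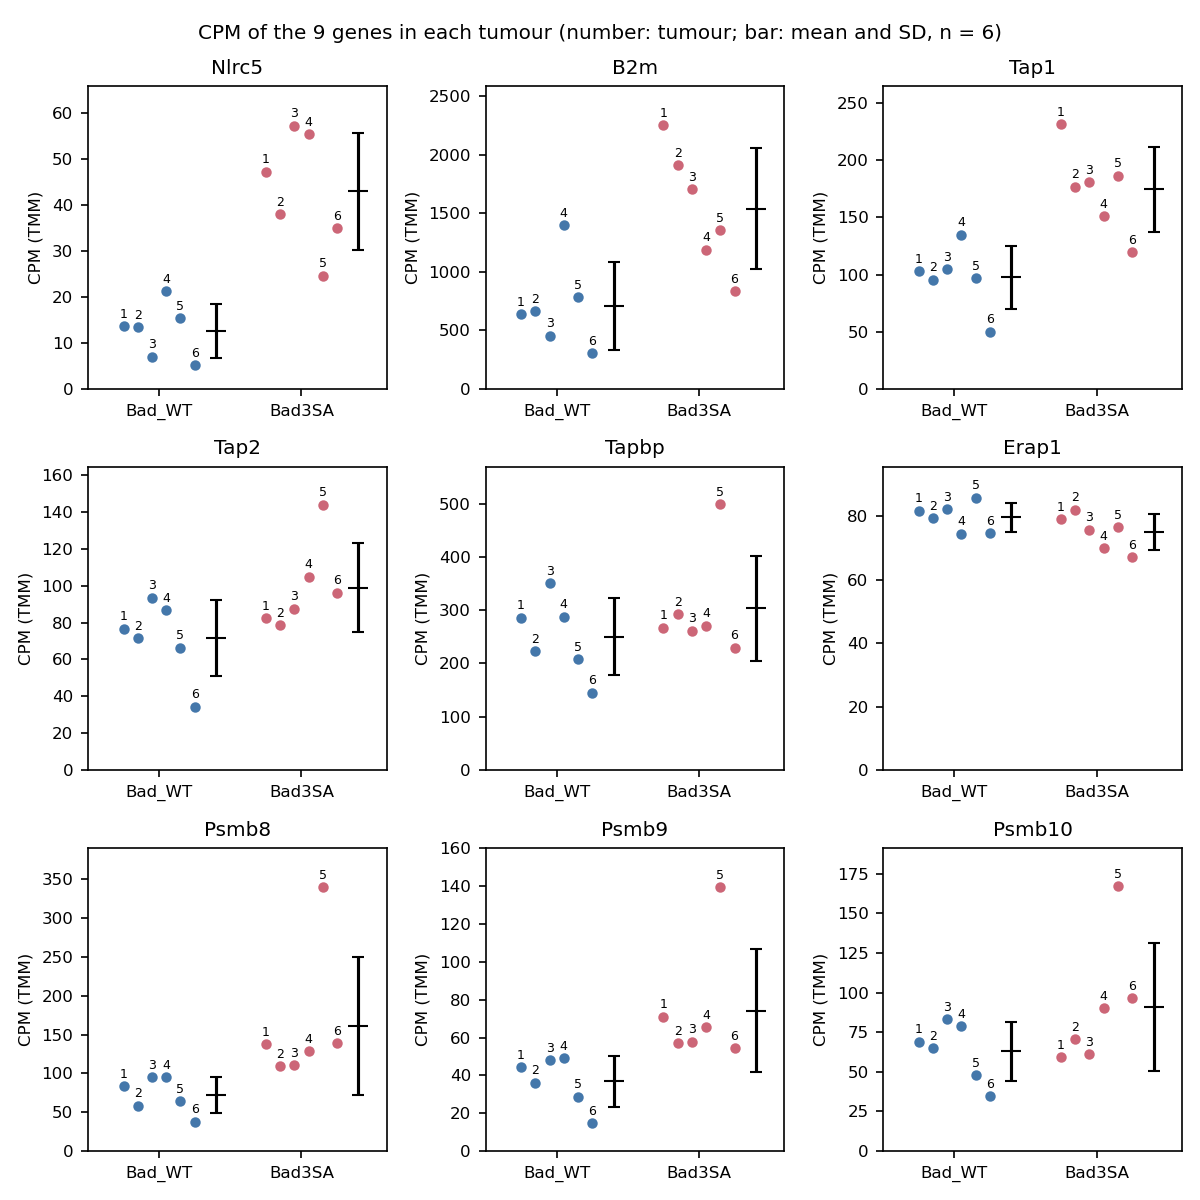
CPM (TMM-scaled, linear axes from 0) of each of the 9 genes in 6 Bad_WT (blue) and 6 Bad3SA (red) tumours, numbered as in the labels, with the mean and SD beside them. The genotypes do not overlap for Nlrc5, Psmb8 and Psmb9, Erap1 is nearly level in all 12 tumours, and Bad3SA 5 lies far above the others for Tapbp, Psmb8, Psmb9 and Psmb10.

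Nlrc5, the regulator, ran from 5.26 over a median of 13.5 to 21.4 CPM in Bad_WT tumours. In Bad3SA tumours it ran from 24.7 over a median of 42.7 to 57.4 CPM. The groups did not overlap, and the highest Bad_WT tumour (number 4) lay just under the lowest Bad3SA tumour (number 5). Means were 12.7 ± 5.85 and 43.0 ± 12.7 CPM (SD, n = 6 tumours per genotype). On the log2 scale this came to 1.76 (SE 0.32, edgeR adjusted p 0.0143). Nlrc5 passed in each of the 12 fits that left out 1 tumour. With end-point age in the model the log2 fold change was 1.81 and the edgeR adjusted p 0.0722, so the call did not stand there.

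B2m, the light chain of every classical class I molecule, was the most abundant of the 9. It ran from 308.6 over a median of 650.3 to 1398 CPM in Bad_WT and from 832.2 over a median of 1527 to 2252 CPM in Bad3SA tumours. The ranges overlapped: 3 of 6 Bad3SA tumours exceeded the highest Bad_WT tumour, number 4. Means were 707.9 ± 377.4 and 1539 ± 515.4 CPM, with log2 1.12 (SE 0.33, edgeR adjusted p 0.134). Without Bad_WT 4 the edgeR adjusted p was 0.0277 (log2 1.44). DESeq2 run here, which called 4.21% of the genes it tested, gave an adjusted p of 0.0396, and limma voom with quality weights, which called 3.21%, gave 0.0194.

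The transporter's subunits differed from each other in their pattern. Tap1 ran from 49.99 over a median of 99.9 to 134.9 CPM in Bad_WT and from 119.4 over a median of 178.8 to 231.5 CPM in Bad3SA tumours. Only Bad3SA 6 fell within the Bad_WT range. Its log2 fold change was 0.84 (SE 0.21, edgeR adjusted p 0.0691). It passed with Bad_WT 4 left out (adjusted p 0.0431), with the 4 tumours that stand apart left out (0.0286), in DESeq2 (0.0175) and in limma voom (0.0105). Tap2 ran from 34.4 over a median of 74.1 to 93.4 CPM in Bad_WT and from 78.4 over a median of 91.9 to 143.9 CPM in Bad3SA tumours. Here 3 of 6 Bad3SA tumours lay within the Bad_WT range (log2 0.47, SE 0.22, edgeR adjusted p 0.306). Without the 4 tumours that stand apart, the log2 fold change was 0.88 for Tap1 and 0.07 for Tap2.

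Tapbp and Erap1 differed least between genotypes. Tapbp, tapasin, ran from 145.5 over a median of 254.4 to 351.1 CPM in Bad_WT and from 229.6 over a median of 269.1 to 499.3 CPM in Bad3SA tumours. Of the 6 Bad3SA tumours, 5 lay within the Bad_WT range and Bad3SA 5 alone lay above it (log2 0.28, SE 0.22, edgeR adjusted p 0.539). Without Bad3SA 5 the log2 fold change was 0.07. Erap1, the trimming peptidase, ran from 74.5 over a median of 80.6 to 86.0 CPM in Bad_WT and from 67.2 over a median of 76.3 to 82.1 CPM in Bad3SA tumours. The ranges overlapped, with Bad3SA 4 and 6 below the lowest Bad_WT tumour and Bad_WT 3 and 5 above the highest Bad3SA tumour (log2 -0.09, SE 0.08, edgeR adjusted p 0.597). The coefficient of variation of Erap1 was 5.70% and 7.44% within the genotypes, while the other 8 genes had 21.5% to 55.0%.

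The immunoproteasome subunits came next. Psmb8, which replaces Psmb5, ran from 37.9 over a median of 73.8 to 95.3 CPM in Bad_WT and from 109.3 over a median of 133.0 to 339.5 CPM in Bad3SA tumours, without overlap (log2 1.15, SE 0.30, edgeR adjusted p 0.0929). Psmb9, which replaces Psmb6, ran from 14.6 over a median of 40.2 to 48.97 CPM in Bad_WT and from 54.3 over a median of 61.6 to 139.4 CPM in Bad3SA tumours, again without overlap (log2 1.01, SE 0.30, edgeR adjusted p 0.138). Psmb10, which replaces Psmb7, ran from 34.8 over a median of 67.0 to 83.4 CPM in Bad_WT and from 59.4 over a median of 80.6 to 167.3 CPM in Bad3SA tumours. Its ranges overlapped in 3 of 6 Bad3SA tumours (log2 0.53, SE 0.27, edgeR adjusted p 0.357). Without Bad3SA 5 the log2 fold changes of the subunits were 0.78 for Psmb8, 0.72 for Psmb9 and 0.25 for Psmb10. Without the 4 tumours that stand apart they were 0.59, 0.59 and -0.10, where Psmb10 was lower in Bad3SA tumours on average. DESeq2 run here gave an adjusted p of 0.0160 for Psmb8 and 0.0458 for Psmb9.

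Each constitutive counterpart had a smaller log2 fold change than the subunit that replaces it. Psmb5 was 65.9 ± 9.81 CPM in Bad_WT and 84.5 ± 32.3 CPM in Bad3SA tumours (log2 0.36, SE 0.20, edgeR adjusted p 0.386). Psmb6 was 238.3 ± 51.1 and 339.8 ± 185.0 CPM (log2 0.51, SE 0.29, adjusted p 0.386), and Psmb7 99.7 ± 12.6 and 105.5 ± 18.2 CPM (log2 0.08, SE 0.13, adjusted p 0.758). Bad3SA 5 was again the highest tumour for Psmb5 and Psmb6, at 148.7 and 677.3 CPM.

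To set each subunit beside the one it replaces, CPM was divided by exon length and the ratio taken on the log2 scale, where 0 means equal levels. Psmb8 over Psmb5 was -1.83 ± 0.59 in Bad_WT (-2.96 to -1.33) and -1.04 ± 0.17 in Bad3SA tumours (-1.18 to -0.72), a difference of 0.79. All 6 Bad3SA ratios lay above all 6 Bad_WT ratios, and all 12 ratios were below 0. That last count depends on the length used: with the longest transcript the means were -1.01 and -0.22, and Bad3SA 5 lay above 0 (0.11). Psmb9 over Psmb6 was -3.75 ± 0.68 and -3.10 ± 0.47, a difference of 0.65, with 3 of 6 Bad3SA tumours above the Bad_WT range. Psmb10 over Psmb7 was 0.29 ± 0.61 and 0.71 ± 0.51, a difference of 0.41, also with 3 of 6 above. These levels depend on the length too. With the longest transcript the means were -4.36 and -3.71 for Psmb9 over Psmb6, and 0.41 and 0.82 for Psmb10 over Psmb7. Psmb10 was the only subunit of the 3 at or above the level of its counterpart on average. Without Bad_WT 6, which had the lowest ratio of all 12 tumours for each pair, the differences were 0.57, 0.39 and 0.20.

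**Figure D2:**
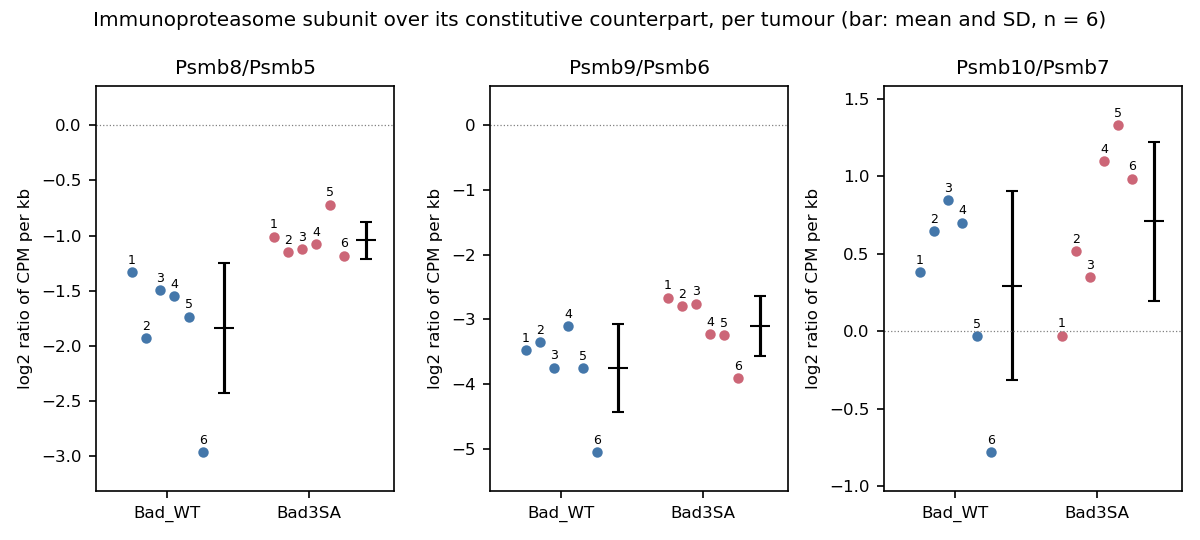
Log2 ratio of CPM per kilobase of exon for each immunoproteasome subunit over its constitutive counterpart, in 6 Bad_WT (blue) and 6 Bad3SA (red) tumours, numbered as in the labels, with mean and SD. The dotted line marks equal levels. The genotypes separate only for Psmb8 over Psmb5, and Bad_WT 6 is lowest in all 3 panels.

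Levels between the 9 genes were compared per kilobase of exon. Over all 12 tumours the order was B2m, Tapbp, Psmb10, Psmb8, Tap1, Tap2, Psmb9, Erap1 and Nlrc5. B2m stood at 823.2 ± 438.8 CPM per kb in Bad_WT and 1790 ± 599.3 in Bad3SA tumours, and Nlrc5 at 1.49 ± 0.69 and 5.06 ± 1.495. Tapbp stood at 69.0 ± 20.0 and 83.7 ± 27.0 CPM per kb, and the remaining genes between 10.1 and 53.4 on average. The neighbours Psmb8 and Tap1, Tap1 and Tap2, and Psmb9 and Erap1 did not differ beyond the SD of their ratio over the 12 tumours. Using the longest transcript in place of all exons left the order as it was, while the mean log2 level of Psmb8 went from 4.90 to 5.72 and that of Erap1 from 3.41 to 3.78. In Bad3SA tumours Psmb9 was above Erap1 in 6 of 6, while in Bad_WT tumours it was above in 3 of 6.

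The spread between tumours of 1 genotype is not what the genes were chosen on, so relations were tested there. Each gene's log2 CPM was taken as its deviation from the genotype mean, and correlations over the 12 tumours were tested by 100000 permutations within genotype (two-sided, 54 relations in 4 families, Benjamini-Hochberg within each family). The deviations fell into 2 patterns. In Bad_WT 6, 8 of the 9 genes had their lowest Bad_WT value, Erap1 being the exception. In Bad3SA 5, Tap2, Tapbp, Psmb8, Psmb9 and Psmb10 were highest of the Bad3SA tumours while Nlrc5 was lowest.

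**Figure D3:**
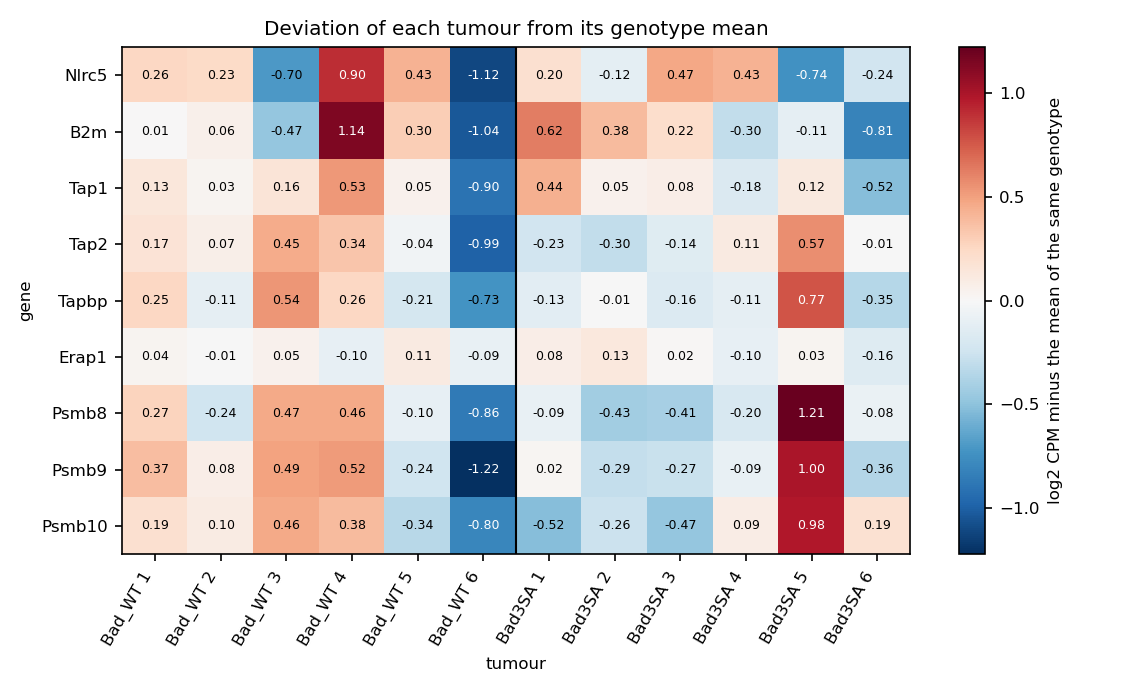
Deviation of log2 CPM from the mean of the same genotype, for the 9 genes (rows) in the 12 tumours (columns, Bad_WT left and Bad3SA right of the line). Red is above and blue below the genotype mean. Bad_WT 6 is low for every gene and most strongly for Psmb9 (-1.22), and Bad3SA 5 is high for Psmb8 (1.21) and low for Nlrc5 (-0.74).

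Of the 8 relations of Nlrc5 with the other genes, 0 passed an adjusted p of 0.05 over both genotypes by either measure. With an unadjusted p under 0.05 there was 1, that with B2m. There Pearson's r was 0.75 (permutation p 0.0107, adjusted 0.0856) and Spearman's rho 0.60 (permutation p 0.0618). Without the 2 tumours farthest from the median of Nlrc5 (Bad3SA 5 and Bad_WT 6) r was 0.69. Within Bad_WT r was 0.96 (n = 6, exact permutation p 0.00278, adjusted 0.0222), and within Bad3SA 0.28 (n = 6, exact permutation p 0.588, adjusted 0.783). The difference between these r values was not tested. For Tap1 r was 0.59 (permutation p 0.0686, adjusted 0.275), and for the other 6 genes it lay between -0.06 and 0.25. Within Bad3SA tumours alone r was -0.80 for Psmb8 (n = 6, exact permutation p 0.0542) and -0.80 for Psmb10 (n = 6, exact permutation p 0.0472), unadjusted. Bad3SA 5 was the tumour lowest for Nlrc5 and highest for both subunits, and the adjusted p of both was 0.217. Over both genotypes, r with Nlrc5 was 0.45 for Psmb8 and 0.30 for Psmb10 without Bad3SA 5, and -0.53 and -0.58 without Bad_WT 6, so its sign depended on the tumour left out. The relation with B2m passed when Bad3SA 4 (r 0.83, adjusted permutation p 0.0359) or Bad3SA 5 (r 0.80, adjusted permutation p 0.0445) was left out. On the log2 scale per length, Psmb8 over Nlrc5 was 5.11 in Bad3SA 5 and 2.28 to 3.32 in the other Bad3SA tumours.

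Among the other 8 genes, 27 of 28 relations were positive. By Pearson's r, 12 passed an adjusted p of 0.05, and by Spearman's rho 3 (Tap1 with Psmb9, Tap2 with Psmb8 and Tap2 with Psmb10). This family of relations was added after the data had been seen. The 12 comprise all 10 pairs among Tap2, Tapbp, Psmb8, Psmb9 and Psmb10 (r from 0.85 to 0.95), together with B2m and Tap1 (r 0.87, adjusted permutation p 0.00572) and Tap1 and Psmb9 (r 0.75, adjusted permutation p 0.0418). Erap1 passed with none. Within Bad_WT alone 13 of the 28 relations passed by r, and within Bad3SA alone 0.

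**Figure D4:**
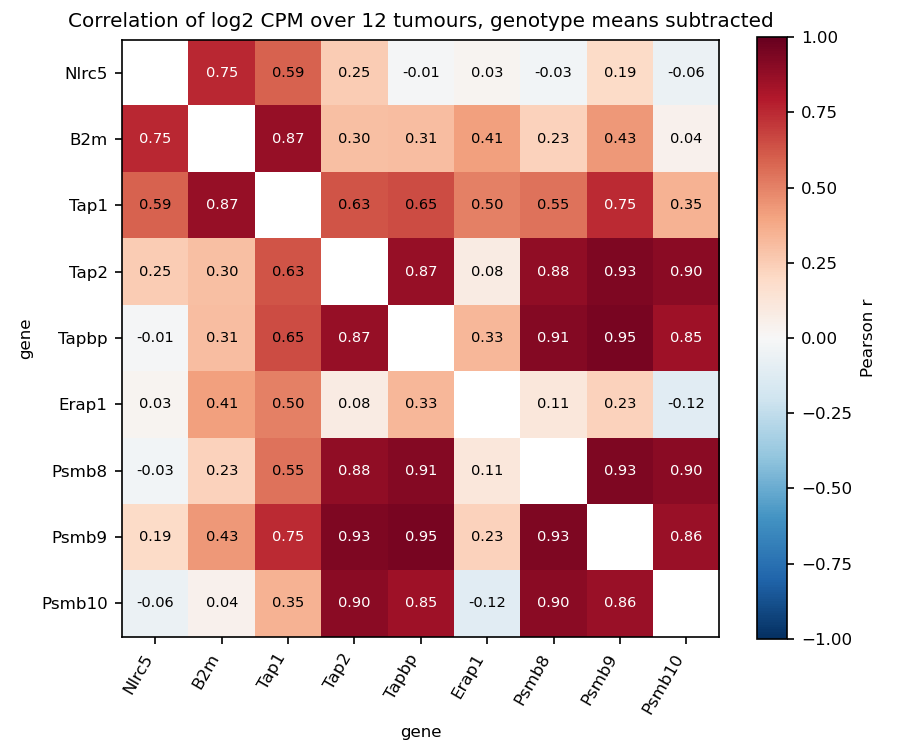
Pearson's r of log2 CPM between each pair of the 9 genes over 12 tumours, after the genotype means were subtracted. Tap2, Tapbp, Psmb8, Psmb9 and Psmb10 form a block of r from 0.85 to 0.95, while Nlrc5 reaches 0.75 with B2m and lies between -0.06 and 0.25 with those 5 genes and Erap1.

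The block of 5 genes includes Tap2, Psmb8 and Psmb9 from the same chromosomal stretch, Tapbp nearby and Psmb10 on chromosome 8. Tap2 with Psmb10, on different chromosomes, had r 0.90 (adjusted permutation p 0.00364) and rho 0.89 (adjusted permutation p 0.0319). Without the 2 tumours farthest from the median of Tap2, r was 0.85. Tap1 with Psmb9, the pair with facing start sites, had r 0.75 and rho 0.86, and without its 2 farthest tumours r was 0.33, so that Pearson relation rests on those tumours. The log2 ratio of Tap1 over Psmb9 per length lay between 0.54 and 1.19 in Bad_WT, and in Bad3SA tumours between 0.56 and 1.12 apart from Bad3SA 5 at -0.16. Leaving out any 1 tumour, 9 to 13 of the 28 relations passed. With Bad_WT 6 and Bad3SA 5 both left out, 0 passed, and r among the 5 genes was 0.44 to 0.85. The calls therefore rest on these tumours, though each r among the 5 genes stayed positive without them.

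Markers of T and natural killer (NK) cells were measured beside these deviations. Of 14 such markers 12 were higher and 2 lower on average in Bad3SA tumours, 0 passed edgeR's adjusted threshold (beside 1.38% of all genes), and their median log2 fold change was 0.59. With an unadjusted p under 0.05 there were 2 of 14, Cd3d (log2 1.03, p 0.0219) and Cd4 (log2 0.63, p 0.0448), beside 16.2% of all tested genes. Their summed CPM ran from 18.6 to 29.0 in Bad_WT and from 24.2 to 43.4 in Bad3SA tumours, lowest in Bad_WT 6 and highest in Bad3SA 5, and none of the 14 was at 0 in all tumours. Within genotype, the mean log2 CPM of these markers correlated with the 9 genes at r of 0.40 to 0.80. None of the 9 relations passed over both genotypes (smallest adjusted permutation p 0.0614), although 6 had an unadjusted permutation p under 0.05. Within Bad3SA alone the relation with Tapbp passed (r 0.85, n = 6, exact permutation p 0.00278, adjusted 0.0250), and within Bad_WT 0 of 9 passed. With Bad_WT 2 or Bad3SA 2 left out 5 passed, and with Bad3SA 1 left out 3. Without the 2 tumours farthest from the marker median (Bad_WT 6 and Bad3SA 6), r was -0.39 to 0.67. Ptprc, carried by all leukocytes, did not pass for genotype (log2 0.09, SE 0.27, edgeR adjusted p 0.881), and its r with the 9 genes was 0.31 to 0.77, with 0 of 9 passing. Summed macrophage and fibroblast markers were also lowest in Bad_WT 6 (352.9 and 280.7 CPM), and their relations with the 9 genes were not tested. The part of any of these cells in the differences of the 9 genes was not tested.

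End-point age offers another measure the genes were not chosen on, and its means were 24.1 ± 1.94 weeks (SD) for the Bad_WT mice and 27.5 ± 2.85 weeks (SD) for the Bad3SA mice. In a model with genotype, 0 of 18019 genes passed edgeR's adjusted threshold for a slope on age, 1520 (8.44%) had an unadjusted p under 0.05, limma voom called 0 and DESeq2 117. Psmb10 was the 1 of the 9 genes with an unadjusted p under 0.05, at a log2 slope of 0.15 per week (SE 0.05, edgeR p 0.00927, adjusted p 0.583). Psmb8, Psmb9, Tap2 and Tapbp had slopes of 0.12, 0.10, 0.09 and 0.08 per week. Nlrc5, B2m, Tap1 and Erap1 had -0.02, -0.01, 0.00 and 0.00. With age in the model, the log2 fold changes between genotypes were 1.13 for B2m, 0.83 for Tap1, 0.70 for Psmb8, 0.66 for Psmb9 and 0.17 for Tap2. Those of Psmb10 (-0.02) and Tapbp (-0.02) changed sign, and 0 of the 9 genes passed for genotype, beside 0.405% of all genes. Age and genotype are partly confounded, and the oldest mouse was Bad3SA 5.

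Other genes of the pathway were read from lists. Since 1.38% of all tested genes passed, a count of 0 in lists of this size is near the background and says nothing particular about a list. Of 8 class I heavy chains, which pair with B2m, all 8 were higher on average in Bad3SA tumours and 2 passed edgeR's threshold (0.622% of all tested genes passed in that direction). These were H2-K1 (1356 ± 598.1 against 3202 ± 733.9 CPM, log2 1.24, SE 0.28, adjusted p 0.0452) and H2-Q7 (log2 2.66, SE 0.42, adjusted p 0.00496), whose reads may be split with near-identical copies. Of 6 loading chaperones and related peptidases, 2 were higher and 4 lower and 0 passed. The smallest p belonged to Canx (calnexin, log2 -0.17, p 0.0883) and Hspa5 (log2 -0.19, p 0.239). The median log2 fold change of these 6 genes was -0.03, beside 1.05 for the heavy chains. This list leaves out Tap1, Tap2, Tapbp and Erap1, whose values are given above.

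All 11 other subunits of the 20S core were higher on average in Bad3SA tumours with 0 passing (median log2 0.26). The smallest unadjusted p belonged to Psma7 (log2 0.41, p 0.0446) and Psma5 (log2 0.25, p 0.0480). All 5 assembly factors were likewise higher with 0 passing (median 0.30). Of 4 activators, Psme1 and Psme2, which form the interferon-inducible cap, were each at log2 0.45 (p 0.0558 and 0.0374), and 2 were lower, with 0 passing. Summed CPM of the 20S list was 1815 to 2235 in Bad_WT and 1978 to 3780 in Bad3SA tumours, highest in Bad3SA 5.

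Genes upstream were mixed. Interferon gamma itself (Ifng) had 18 counts over all Bad_WT and 14 over all Bad3SA libraries and was not tested. Of the 11 other genes of its pathway 8 were higher and 3 lower, and 0 passed. Stat2 was at log2 0.80 (SE 0.22, edgeR adjusted p 0.110). Of the 8 genes for DNA-bound partners of NLRC5 (the RFX, CREB/ATF and NF-Y subunits), 2 were higher and 6 lower with 0 passing (median -0.05). Nfya was at log2 -0.37 (p 0.0253). Of 7 relatives of Nlrc5 in the same receptor family, 5 were higher and 2 lower with 0 passing, and Ciita, the regulator of class II genes, was at log2 -0.03. Of 5 NF-kB genes 2 were higher and 3 lower with 0 passing.

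Genes whose deviations within genotype were most like those of Nlrc5 were ranked among 12272 tested genes by Pearson's r over 12 tumours, as a description. The 5 nearest were Ggn (0.94), Plch2 (0.93), Ppm1k (0.92), Pak6 (0.91) and Crybg3 (0.91). On that measure B2m ranked 148, Tap1 802 and Tap2 3291. Psmb9, Erap1, Tapbp, Psmb8 and Psmb10 ranked from 3795 to 6042. Of the 5 nearest genes 0 passed for genotype, and Crybg3 came closest (log2 0.98, edgeR adjusted p 0.198).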

How the data were processed

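Breast tumours of 12 mice, 6 per genotype as labelled, were compared. Per the submitters' processing notes, reads (100 bases, paired) were trimmed with fastp 0.23.1 and aligned with STAR 2.7.9a to GRCm38 (counter, annotation and strand setting: not given in the sources used here). Raw counts per gene were deposited by the authors, with a table of log2 fold changes and adjusted p-values from DESeq2. Its mean normalised signal per gene and its Wald score, also deposited, were not printed. In that deposited table log2 values are Bad_WT over Bad3SA: their rank correlation with the values fitted here was -0.997, and they were turned around.

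Counts of 55487 genes (0 unnamed entries) were filtered with filterByExpr, scaled by TMM and tested with edgeR 4.0.16 (robust quasi-likelihood, R 4.3.3), adjusted over 18019 genes. SE is the log2 fold change over the root of F. CPM on the log2 scale used a prior count of 2. Alternatives were DESeq2 1.42.0 (test and size factors), limma 3.58.1 voom, other filters, age, a replicate block and leaving out tumours. In simulated data for Bad3SA against Bad_WT (17766 genes), 36.7% of genes changed by a log2 of 1 and 84.0% of those changed by 2 were called. Named genes are the 9, their 3 counterparts, each list's genes past the threshold and the 2 with the smallest p, and the 5 most like Nlrc5; 1 gene the rule names is not reported here. A few others (Ciita, Ifng, H2-D1 and H2-M3) were named after their values were seen. Members and lists were chosen with earlier results of these data known. The labels call the mice independent; p-values cover the spread between these tumours.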

Additional observations from a re-analysis of the deposited data

Results flagged for a closer look

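A single tumour lay far from the other 5 of its genotype in 6 of 24 groups tested (Dixon's test at the 95% level); chance flags about 1 in 20 groups, and the 6 come from only 2 tumours. Bad3SA 5 stood above the other Bad3SA tumours for Tapbp (499.3 CPM), Psmb8 (339.5 CPM), Psmb9 (139.4 CPM) and Psmb10 (167.3 CPM). It came from the oldest mouse. Bad_WT 6 stood below the other Bad_WT tumours for the log2 ratio of Psmb8 over Psmb5 (-2.96) and of Psmb9 over Psmb6 (-5.05). It came from the youngest mouse, and it had the lowest summed T and NK markers and the lowest Ptprc (8.49 CPM). Summed macrophage (352.9 CPM), fibroblast (280.7 CPM) and B cell markers (0.54 CPM) were also lowest in Bad_WT 6. Summed dendritic, endothelial and epithelial markers were lowest in other tumours.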

How the results depend on the processing

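Genes passing for genotype numbered 249, and 998 with DESeq2, 579 with limma voom, 163 at a minimum of 1 CPM in 6 tumours, 73 with age in the model and 147 to 315 leaving out 1 tumour (158, 161 and 147 without Bad_WT 1, 3 and 5, and 151 and 148 without Bad3SA 3 and 4). Of the 9 genes 1 passed, and 5 with DESeq2, 3 with limma voom, 0 with age, 2 without the 4 tumours that stand apart (Bad_WT 6 and Bad3SA 4, 5 and 6, chosen after seeing the data) and 1 to 3 leaving out 1 tumour (3 without Bad_WT 4). With the replicate number as a block 105 genes passed and Nlrc5 remained (edgeR adjusted p 0.0490). Deviations of same-numbered tumours from their genotype means correlated at -0.27 to 0.28. The labels do not say whether a number marks a shared litter or day, and these correlations cannot decide it. The fold changes of Tapbp and Psmb10 turned to -0.0204 and -0.0153 with age, and Psmb10 to -0.10 without the 4 tumours. Slopes on age: DESeq2 called 117 genes in place of 0; without genotype in the model Nlrc5 was at 0.148, B2m at 0.0908 and Erap1 at -0.00925; leaving out 1 tumour Nlrc5 ran from -0.0852 to 0.0546, B2m from -0.0568 to 0.126, Tap1 from -0.0396 to 0.0917 and Erap1 from -0.00577 to 0.0134. Of the relations of Nlrc5 0 to 1 passed leaving out 1 tumour, of those with T and NK markers 0 to 5, and of the 28 among the other genes 9 to 13, or 0 without Bad_WT 6 and Bad3SA 5. Without those tumours r with Nlrc5 was -0.19 for Tap2, -0.21 for Erap1 and -0.0352 for Psmb9; with DESeq2 size factors it was 0.0224 for Tapbp. Leaving out 1 tumour, r with Nlrc5 ran from -0.50 to 0.55 for Tap2, -0.60 to 0.35 for Tapbp, -0.24 to 0.25 for Erap1, -0.53 to 0.45 for Psmb8, -0.45 to 0.58 for Psmb9 and -0.58 to 0.30 for Psmb10, and that of the T and NK markers with Nlrc5 from -0.23 to 0.65. The cause of these changes was not tested. Depth does not limit these genes, since 3 counts are at most 0.0516 CPM.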
